A study of Mus musculus with 12 samples.

Results

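The genes described here encode 4 enzymes that make or break down oxysterols and the receptor Gpr183, which senses one of the products. They were chosen by gene symbol, as Ch25h, Cyp7b1, Hsd3b7, Cyp27a1 and Gpr183, and all 5 were found among the 23284 gene symbols of both count tables. RNA was sequenced from spleen and axillary lymph node of DKO mice, which lack both apoE and apoA-I, and of DKO/hA-I mice, which lack the same mouse apolipoproteins and overexpress human apoA-I. The 4 groups, spleen DKO, spleen DKO/hA-I, lymph node DKO and lymph node DKO/hA-I, had 3 libraries each, from mice of 30 weeks of age fed normal laboratory diet. No source used here gives the promoter of the human transgene, human APOA1 was not analysed here, and no animal code is shared between the tissues. DKO was set against DKO/hA-I in each tissue, which compares mice without and with human apoA-I where both lack the mouse apolipoproteins. Spleen was set against lymph node.

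Oxysterols are hydroxylated forms of cholesterol. Ch25h hydroxylates the side chain of cholesterol, Cyp7b1 then hydroxylates the sterol ring, and the product is the main ligand of Gpr183, a G protein-coupled receptor also called EBI2. Hsd3b7 oxidises that ligand to a form the receptor does not bind, so that gradients can form between stroma that makes the ligand and zones that remove it. Activated B cells, helper T cells and dendritic cells of spleen and lymph node follow these gradients to the edge of the follicle and the bridging channels. Cyp27a1, a mitochondrial hydroxylase of the bile acid pathway, makes a separate side chain oxysterol that is abundant in macrophages.

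Ch25h is a gene of 1 exon on the minus strand of chromosome 19, from 34473778 to 34475164 (GRCm38), and a noncoding gene of the other strand, Gm26902, covers 11.5% of its exon bases. Gpr183 lies on the minus strand of chromosome 14, from 121952551 to 121965195, within the span of Ubac2 on the other strand, with which it shares 0 exon bases. Hsd3b7 lies on the plus strand of chromosome 7, from 127800604 to 127803802. A longer gene model on the same strand, Gm49388, and an opposite-strand transcript, 9430064I24Rik, cover 62.0% and 62.4% of its exon bases. Gm26902 and these models of Hsd3b7 were not analysed here, and because the strand setting of the counting is not given, their reads cannot be told from those of Ch25h and Hsd3b7. Cyp27a1 is on chromosome 1 (plus strand, 74713574 to 74737892) and Cyp7b1 on chromosome 3 (minus strand, 18071950 to 18243338).

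The RefSeq promoters of the 3 genes called between spleen and lymph node within a genotype are shown from position -250 to -21 relative to the RefSeq start (GRCm38.p6, gene strand, 230 bases each), at chr19:34475169-34475398 for Ch25h, chr7:127800359-127800588 for Hsd3b7 and chr14:121965214-121965443 for Gpr183. Capitals mark matches to the motifs searched on both strands.
Ch25h: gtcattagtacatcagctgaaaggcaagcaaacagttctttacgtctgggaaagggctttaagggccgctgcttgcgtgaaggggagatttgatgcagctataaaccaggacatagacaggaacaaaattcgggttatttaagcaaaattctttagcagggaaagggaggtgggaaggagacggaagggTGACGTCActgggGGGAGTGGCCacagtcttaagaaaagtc
Hsd3b7: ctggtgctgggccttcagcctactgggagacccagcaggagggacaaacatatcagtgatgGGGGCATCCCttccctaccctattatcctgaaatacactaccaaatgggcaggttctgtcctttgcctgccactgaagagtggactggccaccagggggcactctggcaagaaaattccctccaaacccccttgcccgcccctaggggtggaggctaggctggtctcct
Gpr183: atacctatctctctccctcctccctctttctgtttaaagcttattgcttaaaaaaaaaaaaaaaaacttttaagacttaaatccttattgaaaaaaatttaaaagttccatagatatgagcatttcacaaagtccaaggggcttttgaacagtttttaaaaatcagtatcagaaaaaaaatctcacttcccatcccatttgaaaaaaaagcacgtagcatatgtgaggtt
The Ch25h window holds the cAMP response element TGACGTCA, starting at -61, which 1.28% of 32851 promoter windows of this length hold. A match to the nuclear factor kappa B pattern, GGGA and CC with 4 bases of any kind between them, begins at -48 in Ch25h and another at -189 in Hsd3b7. That pattern is in 16.2% of the windows. The interferon stimulated response element, searched as GAAA repeated after 2 bases of any kind (2.72% of windows), the AP-1 site TGANTCA (6.34%) and the gamma interferon activation site TTCNNNGAA (6.48%) had 0 matches in these 3 windows. The matches did not overlap, and they describe letters only.

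Library totals ran from 5911835 to 11950825 counts, and 3 counts, taken as the detection floor, correspond to 0.507 CPM in the shallowest and 0.251 CPM in the deepest library. CPM are counts scaled to a common library size. DKO lymph node replicate 2 had the lowest total. Its summed foam cell markers were 2927 CPM, against 7671 and 9753 in the other DKO nodes, and its plasma cell markers were 8833 CPM, against 1780 and 2227. The ribosomal pseudogene Rpl31-ps12 had 5 counts in spleens labelled DKO against 2162 in those labelled DKO/hA-I, but 2094 counts in nodes labelled DKO against 3 in nodes labelled DKO/hA-I. Mouse Apoa1 and Apoe are targeted in both genotypes and do not test the labels, so the genotypes named below are those of the labels. Were the labels of 1 tissue exchanged, each genotype difference there would change sign, and the differences of genotype effects between tissues would change in size. The animal codes of the 3 DKO nodes have 75 in the middle and those of the DKO/hA-I nodes do not, so genotype and what this number stands for cannot be told apart. Erythroid markers, which mark splenic red pulp, summed to 6477 to 37091 CPM in the 6 spleens and 12.3 to 268 CPM in the 6 nodes.

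Expressed per length, as CPM per kilobase of exon (RPKM), the receptor and Cyp27a1 had the highest means of the 5 genes in 3 groups and Cyp7b1 the lowest in all 4. In DKO nodes Hsd3b7 averaged between Gpr183 and Cyp27a1. Gpr183 stood at 18.4 ± 0.351 RPKM in DKO spleens, 19 ± 2.34 in DKO/hA-I spleens, 20.5 ± 1.37 in DKO nodes and, at its highest, 30.0 ± 2.19 in nodes of DKO/hA-I mice (SD, n = 3). Cyp27a1 stood at 25.5 ± 2.17 and 26.3 ± 4.11 RPKM in DKO and DKO/hA-I spleens and at 16.9 ± 6.05 and 19 ± 0.885 RPKM in DKO and DKO/hA-I nodes. Among the 13163 tested genes with a known length, their percentiles by RPKM ran from 76.1 to 87.9.
Hsd3b7 had 9.82 ± 0.711 and 9.14 ± 0.682 RPKM in DKO and DKO/hA-I spleens and 18.3 ± 4.78 and 12.4 ± 1.86 RPKM in DKO and DKO/hA-I nodes. Ch25h, the first enzyme, reached 3.47 ± 1.24 and 2.28 ± 0.565 RPKM in the spleens and 6.57 ± 0.634 and 5.93 ± 1.69 RPKM in the nodes, in the same order of genotypes. Cyp7b1, the second enzyme, had means between 1.15 and 1.80 RPKM in the 4 groups, or 17.6 to 23.5 as a percentile. In every group the mean RPKM of the enzyme that removes the ligand was above those of both enzymes that make it.

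The order of the groups differed between the genes. For Gpr183 the CPM of DKO spleens, DKO/hA-I spleens and DKO nodes, in rising order of the mean, overlapped between neighbours, and DKO/hA-I nodes lay above all of them. For Ch25h the order was DKO/hA-I spleens, DKO spleens, DKO/hA-I nodes and DKO nodes, and only the step between spleen and node was free of overlap. Cyp27a1 had the rising order DKO nodes, DKO/hA-I nodes, DKO spleens and DKO/hA-I spleens, again with a gap only between the tissues. Neighbours overlapped throughout for Hsd3b7, which had the same order as Ch25h, and for Cyp7b1.

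**Figure D1:**
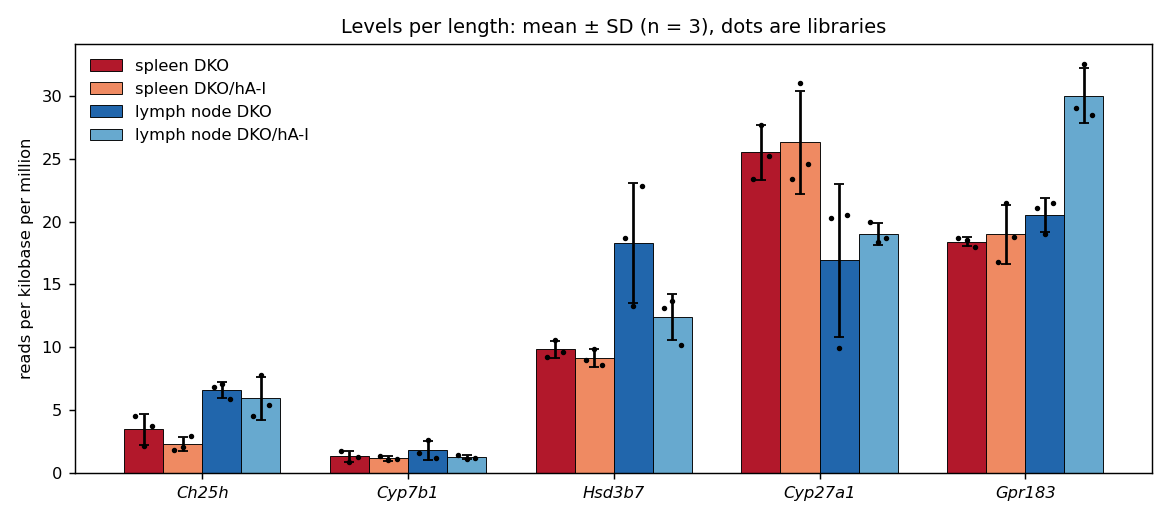
Level of each gene per length in RPKM (vertical axis, linear), by group, where bars are means, error bars SD over 3 libraries and dots the libraries. Group means of Cyp7b1 stayed at or under 1.80. Group means of Gpr183 reached 30.0 in DKO/hA-I nodes and those of Cyp27a1 26.3 in DKO/hA-I spleens.

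Gpr183 was the one gene of the 5 called between the genotypes, and this call was in lymph node. Gpr183 fell in DKO nodes, to 60.9, 54.8 and 62.2 CPM, against 83.8, 93.9 and 82.2 CPM in DKO/hA-I nodes. All 3 DKO nodes were below all 3 DKO/hA-I nodes, and the groups did not overlap. The mean was 59.3 ± 3.95 CPM in DKO and 86.6 ± 6.32 CPM in DKO/hA-I nodes (log2 fold change -0.53 ± 0.12, 95% interval -0.81 to -0.26, edgeR adjusted p = 0.0404). In this comparison 6.87% of 14012 genes were called, 2.92% as lower, 25.1% had an unadjusted p under 0.05, and 14.9% were lower with groups that did not overlap. An absolute log2 fold change as large as that of Gpr183 was found in 24.3% of the genes tested. Ubac2, the gene around it, stood at 60.6 ± 4.8 CPM in DKO and 61.1 ± 5.31 CPM in DKO/hA-I nodes (log2 fold change 0.00 ± 0.13, adjusted p = 0.998). The authors' deposited table gives Gpr183 a q-value of 0.999995 in lymph node.

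Leaving out any node other than DKO replicate 2 ended the call of Gpr183. The edgeR adjusted p was 0.0728 without DKO replicate 1 and 0.109 without DKO replicate 3. Leaving out a DKO/hA-I node gave 0.106 (replicate 1), 0.173 (replicate 2) and 0.0801 (replicate 3), and leaving out DKO replicate 2 gave 0.0241. The log2 fold change stayed between -0.58 and -0.47 in these fits.

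Markers of lymphocytes, which carry Gpr183, are given beside it. The 7 B cell markers all lay below 0 in log2 fold change in DKO nodes (median -0.47), as did the 6 T cell markers tested (median -0.52), against a median of 0.01 over all genes. Of the B cell markers 0 were called by edgeR or limma voom, 1 by DESeq2 and 3 had an unadjusted p under 0.05. Of the T cell markers 0 were called by edgeR or limma voom, 3 by DESeq2 and 5 had an unadjusted p under 0.05. In DKO nodes the summed markers were 1780 to 2736 CPM for B cells and 527 to 828 CPM for T cells, against 2869 to 3268 CPM for B cells and 932 to 1080 CPM for T cells in DKO/hA-I nodes. Of 8 conventional dendritic cell markers, all tested, 1 was called higher and 2 lay above 0 in log2 fold change in DKO nodes (median -0.16). They summed to 258 to 1005 CPM in DKO and 251 to 306 CPM in DKO/hA-I nodes. Itgax, the called marker, stood at 507 ± 345 CPM in DKO and 101 ± 14.6 CPM in DKO/hA-I nodes. No marker of these lists was at 0 counts in a group. Their part in the difference of Gpr183 was not tested, and in bulk tissue fewer cells of a type and less RNA per cell cannot be told apart.

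The enzymes were not called between the genotypes in lymph node. Hsd3b7 had 51.7, 36.8 and 63.2 CPM in DKO nodes, against 36.4, 37.9 and 28.4 CPM in DKO/hA-I nodes. DKO replicates 1 and 3 lay above all DKO/hA-I nodes and DKO replicate 2 among them, so the groups overlapped. Its log2 fold change was 0.58 ± 0.21 (95% interval 0.08 to 1.07, edgeR adjusted p = 0.144). Without DKO replicate 2 it was 0.76 with an adjusted p of 0.014. Cyp27a1 had 44.1, 21.6 and 44.6 CPM in DKO nodes, against 43.5, 39.9 and 40.6 CPM in DKO/hA-I nodes. DKO replicate 2 was the lowest of the 12 libraries for Cyp27a1, and the other nodes lay within 39.9 to 44.6 CPM. The difference was -0.15 ± 0.26 on the log2 scale (95% interval -0.74 to 0.45, adjusted p = 0.766), and 0.11 without that library.

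Ch25h had 9.44, 9.78 and 8.12 CPM in DKO nodes, against 6.31, 10.8 and 7.52 CPM in DKO/hA-I nodes. The DKO values lay inside the range of the DKO/hA-I values (log2 fold change 0.15 ± 0.25, 95% interval -0.42 to 0.72, edgeR adjusted p = 0.746). Cyp7b1 was measured on 24 to 38 counts per node. It had 3.42, 5.73 and 2.56 CPM in DKO nodes, against 3.16, 2.44 and 2.58 CPM in DKO/hA-I nodes. DKO replicate 2 stood highest and the rest overlapped (log2 fold change 0.49 ± 0.35, 95% interval -0.31 to 1.30, adjusted p = 0.429).

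Macrophage markers differed between the genotypes in lymph node, where 6.87% of all genes were called, 2.92% as lower in DKO. Of 11 tested, 6 were called higher and 1 lower in DKO, and their sum was 4025, 2373 and 5561 CPM in DKO replicates 1, 2 and 3, against 2226, 1730 and 1439 CPM in DKO/hA-I nodes. Of 7 foam cell markers, 6 were called higher, with sums of 2927 to 9753 CPM in DKO and 1271 to 1855 CPM in DKO/hA-I nodes. DKO replicate 2 was lowest of the DKO nodes in both lists, in Hsd3b7 and in Cyp27a1. Of 10 markers of reticular stroma, a known source of Gpr183 ligand near follicles, 6 were called higher, with sums of 1078 to 1747 CPM in DKO and 717 to 864 CPM in DKO/hA-I nodes. Among the stroma markers not called, Ccl19 and Ccl21a lay below 0 in DKO nodes, at log2 fold changes of -0.21 and -0.45. No member of these lists was at 0 counts, and their part in the enzyme levels was not tested.

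**Figure D2:**
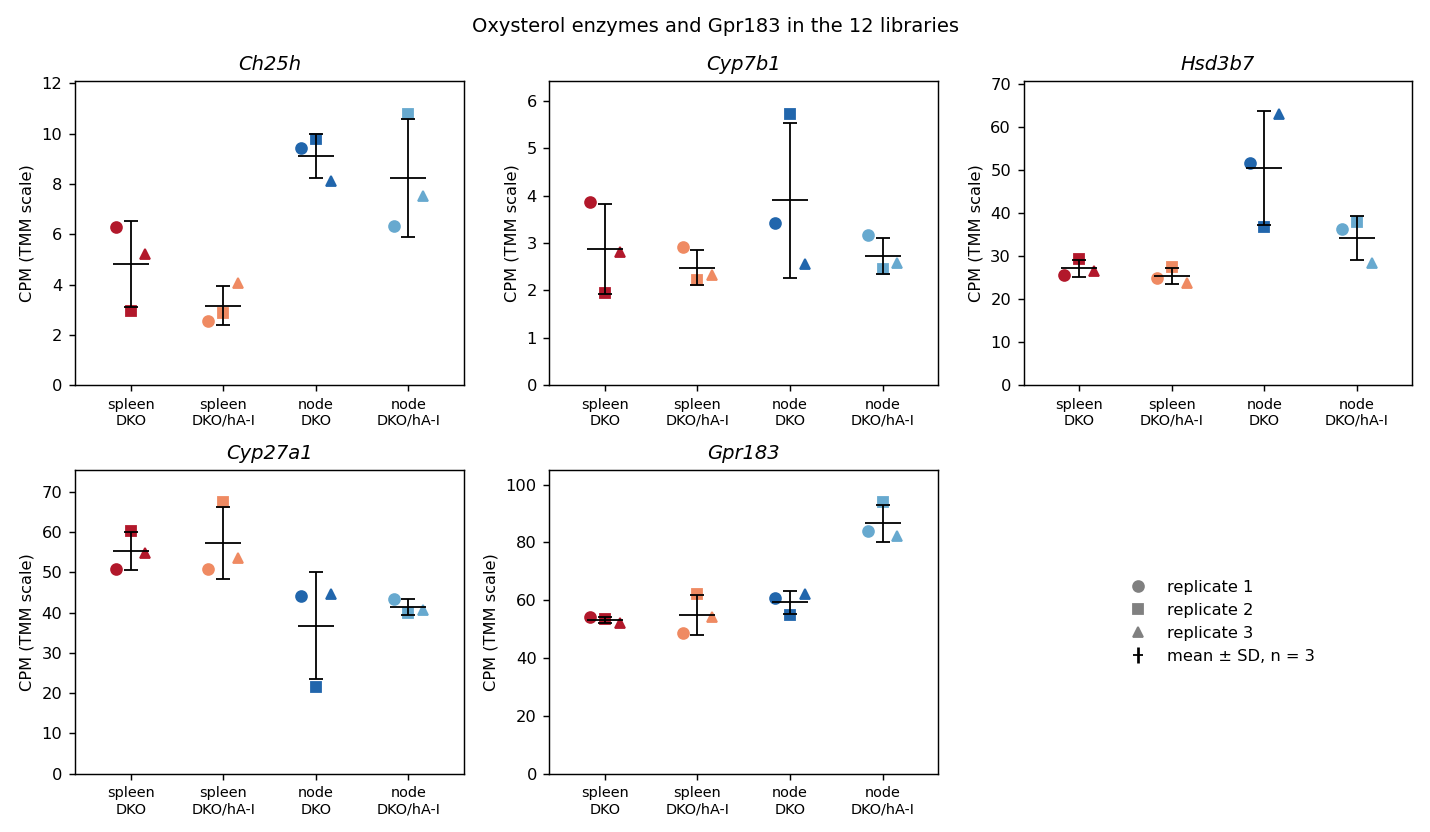
CPM of each gene in every library (vertical axes, linear, from 0) by group, with mean and SD over 3 libraries as black lines. The 3 DKO nodes lay at 54.8 to 62.2 CPM of Gpr183, below the DKO/hA-I nodes at 82.2 to 93.9 CPM, and DKO node replicate 2 had 21.6 CPM of Cyp27a1.

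In spleen, 0 of the 5 genes were called between the genotypes by edgeR, DESeq2 or limma voom, and 0 had an unadjusted p under 0.05. Over all 14009 genes 0.00714% were called by edgeR and 4.4% had an unadjusted p under 0.05. The middle numbers 55 and 57 of the animal code occur in both genotypes of spleen, and DKO replicate 1 alone has 56. Blocking on this number gave 515 calls, of which 355 were higher in DKO and 160 lower, among them 0 of the 5 genes, whose adjusted p ran from 0.507 to 0.898. Gpr183 had 54.1, 53.4 and 52.1 CPM in DKO spleens, against 48.6, 62.1 and 54.2 CPM in DKO/hA-I spleens. The DKO values fell inside the DKO/hA-I range, and the 95% interval of the log2 fold change was -0.33 to 0.22 (estimate -0.05 ± 0.12, edgeR adjusted p = 0.958). Ch25h had 6.29, 2.93 and 5.2 CPM in DKO spleens, against 2.56, 2.88 and 4.05 CPM in DKO/hA-I spleens. DKO replicates 1 and 3 were the highest spleens and DKO replicate 2 lay among the DKO/hA-I values (log2 fold change 0.59 ± 0.31, 95% interval -0.12 to 1.29, adjusted p = 0.928). An absolute log2 fold change that large was found in 3.13% of the genes tested in spleen, and Ch25h rested there on 29 to 57 counts per library.

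The other 3 enzymes overlapped between the genotypes in spleen. Hsd3b7 stood at 27.2 ± 1.97 CPM in DKO and 25.3 ± 1.89 CPM in DKO/hA-I spleens (log2 fold change 0.10, 95% interval -0.18 to 0.37). Cyp27a1 stood at 55.3 ± 4.71 CPM in DKO and 57.2 ± 8.93 CPM in DKO/hA-I spleens (log2 fold change -0.06, interval -0.36 to 0.25). Cyp7b1 stood at 2.87 ± 0.957 CPM in DKO and 2.48 ± 0.376 CPM in DKO/hA-I spleens (log2 fold change 0.19, interval -0.47 to 0.85). The edgeR adjusted p of these genes ran from 0.933 to 0.962.

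Whether the genotype difference itself differed between the tissues was tested in one fit of the 12 libraries, as spleen minus lymph node. It was 0.50 ± 0.16 for Gpr183 on the log2 scale (95% interval 0.15 to 0.85, unadjusted p = 0.00872, edgeR adjusted p = 0.12) and did not pass. For Hsd3b7 it was -0.46 ± 0.26 (adjusted p = 0.399), and for Ch25h, Cyp27a1 and Cyp7b1 it was 0.45 ± 0.42, 0.11 ± 0.31 and -0.27 ± 0.47, with adjusted p of 0.651, 0.915 and 0.843. Of 14608 genes, 3.33% were called and 17.1% had an unadjusted p under 0.05. Of the 5 genes, 0 were called by edgeR, DESeq2 or limma voom, and 1 had an unadjusted p under 0.05. The lower Gpr183 in DKO nodes is therefore not shown to be particular to lymph node.

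**Figure D3:**
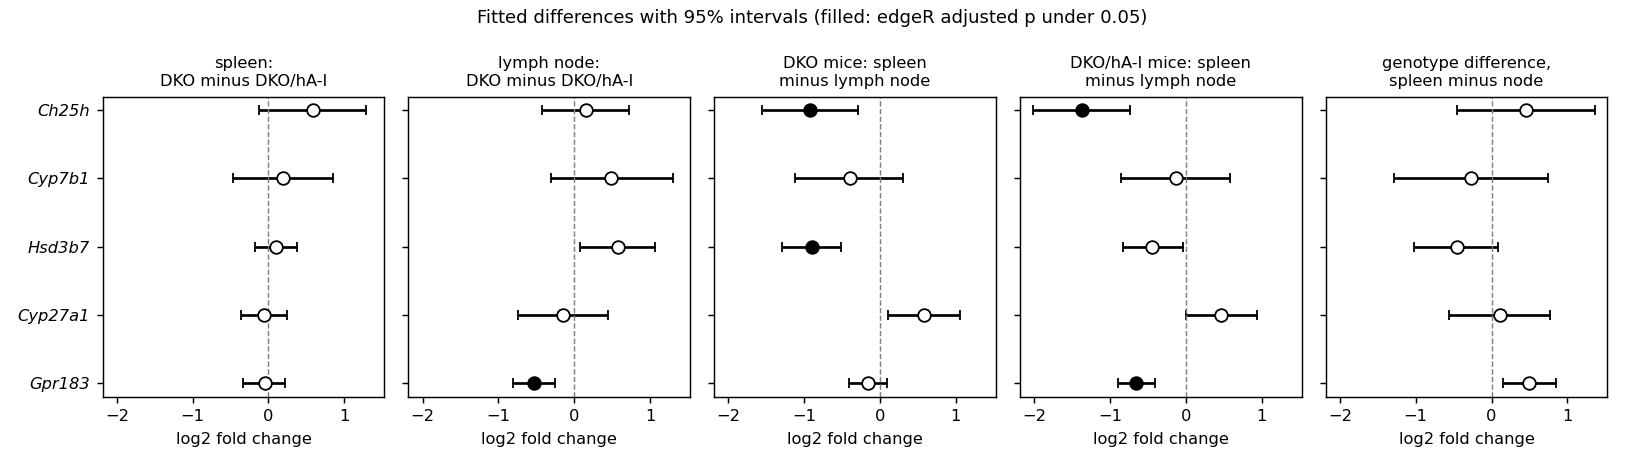
Fitted log2 fold change (horizontal axes) of each gene with its 95% interval in 5 comparisons, filled where the edgeR adjusted p was under 0.05. Between genotypes Gpr183 in lymph node was called, at -0.53, and between tissues Ch25h was called in both genotypes, at -0.92 in DKO and -1.37 in DKO/hA-I mice.

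Spleen differed from lymph node in the first enzyme of the pathway in both genotypes. Ch25h was lower in the spleens, at 4.81 ± 1.71 CPM in DKO spleens and 9.11 ± 0.879 CPM in DKO nodes (log2 fold change -0.92 ± 0.29, edgeR adjusted p = 0.0382). In DKO/hA-I mice it stood at 3.16 ± 0.783 CPM in spleens and 8.23 ± 2.34 CPM in nodes (-1.37 ± 0.30, adjusted p = 0.00415). Over both genotypes the 6 spleens ranged from 2.56 to 6.29 CPM (median 3.49) and the 6 nodes from 6.31 to 10.8 CPM (median 8.78), so that the highest spleen lay just below the lowest node. In DKO mice alone the call was lost without lymph node DKO replicate 1 or 3 or spleen DKO replicate 2 or 3, with adjusted p of 0.0856, 0.06, 0.14 and 0.0758, and also with unscaled library totals (0.0523) or without the DKO/hA-I libraries in the fit (0.0843).

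Hsd3b7 and Gpr183 were also lower in spleen, but were called in 1 genotype each. Hsd3b7 was called in DKO mice, with a log2 fold change of -0.90 ± 0.18 (edgeR adjusted p = 0.00288), and was at -0.44 ± 0.18 in DKO/hA-I mice (adjusted p = 0.100), where the groups did not overlap. Gpr183 was called in DKO/hA-I mice at -0.66 ± 0.11 (adjusted p = 0.000896), and was at -0.16 ± 0.11 in DKO mice (adjusted p = 0.361). The tests of the genotype difference between tissues given above did not pass for these genes. Cyp27a1 was higher in spleens in every library, at 50.8 to 67.4 CPM in the 6 spleens and 21.6 to 44.6 CPM in the 6 nodes, but was called in neither genotype alone (log2 fold changes 0.58 ± 0.22 and 0.47 ± 0.22, adjusted p = 0.0776 in DKO and 0.140 in DKO/hA-I mice). Without node DKO replicate 2 in the fit, Hsd3b7 and Cyp27a1 passed in DKO/hA-I mice, with adjusted p of 0.0229 and 0.0113. Cyp7b1 overlapped between the tissues in both genotypes, with 95% intervals of -1.12 to 0.31 in DKO and -0.85 to 0.59 in DKO/hA-I mice.

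These tissue calls stand beside high backgrounds. In DKO mice 22.7% of 14608 genes were called, 11.3% as lower in spleen, and in DKO/hA-I mice 25.7%, 11.8% as lower. Each comparison called 2 of the 5 genes, both lower in spleen, so the counts say little about the 5 as a group. The groups did not overlap for 4 of the 5 genes in each genotype, against 32.7% and 45.6% of all genes. Averaged over the genotypes, which does not depend on the genotype labels, the edgeR adjusted p was 0.000845 for Ch25h, 0.00124 for Hsd3b7, 0.00154 for Gpr183, 0.0181 for Cyp27a1 and 0.412 for Cyp7b1, with log2 fold changes of -1.15 ± 0.21, -0.67 ± 0.13, -0.41 ± 0.08, 0.52 ± 0.15 and -0.27 ± 0.23. This average called 35.4% of all genes, 17.9% as higher and 17.5% as lower in spleen, and was added after the values were seen. The 6 spleens and 6 nodes did not overlap for Ch25h (lower) and Cyp27a1 (higher), as for 6.44% of all genes with lower and 9.1% with higher values in spleen.

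Markers of macrophages and stroma differed between the tissues as well. Over all genes, 22.7% were called in DKO mice, 11.3% as lower in spleen, and 25.7% in DKO/hA-I mice, 11.8% as lower. In spleens of DKO mice 2 of 11 macrophage markers were called higher and 7 lower. All 7 foam cell markers and 5 of 10 reticular stroma markers were called lower there. In spleens of DKO/hA-I mice 5 macrophage markers were called higher and 1 lower. Of the foam cell markers 4 were called lower, and of the stroma markers 2 were called higher and 3 lower. Macrophage markers summed to 2733 to 2956 CPM in DKO spleens and 2373 to 5561 CPM in DKO nodes, and to 2330 to 2643 CPM in DKO/hA-I spleens and 1439 to 2226 CPM in DKO/hA-I nodes. No marker of these lists was at 0 counts, and their part in the tissue differences of the enzymes was not tested. No animal code occurs in both tissues, so the tissue difference and any difference between the animals used for each cannot be told apart.

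The genes stimulated by interferon, a class that includes Ch25h in macrophages and dendritic cells, were called lower in spleen in part. Of 15 tested, 9 were called lower in spleens of DKO mice (median log2 fold change -1.33, against -0.01 over all genes). In spleens of DKO/hA-I mice 11 were called lower (median -1.51). In each genotype 2 of the 15 lay above 0. Over all genes 11.3% were called lower in spleens of DKO and 11.8% in spleens of DKO/hA-I mice. DESeq2 called 9 in DKO and 11 in DKO/hA-I mice, and limma voom 5 in each. With 1 library left out in turn, 1 to 10 were called lower in DKO and 6 to 13 in DKO/hA-I mice. The lowest count, 1, came without spleen DKO replicate 1, and 2 came without spleen DKO replicate 2 or 3 or without node DKO replicate 1 or 3. Without spleen DKO/hA-I replicate 1 or 2 it was 5 or 4 in DKO mice and 6 in DKO/hA-I mice, and without spleen DKO/hA-I replicate 3 or node DKO/hA-I replicate 1 or 3 it was 7 in DKO/hA-I mice. Ifit2 and Mx1, antiviral effectors named after their values were seen, are examples. Ifit2 stood at 38.9 ± 5.7 CPM in DKO spleens and 169 ± 50.6 CPM in DKO nodes, and Mx1 at 38.6 ± 4.95 CPM in DKO/hA-I spleens and 182 ± 130 CPM in DKO/hA-I nodes. Between the genotypes 0 of the 15 were called in either tissue by edgeR, DESeq2 or limma voom, with 1 in spleen and 0 in lymph node at an unadjusted p under 0.05. Without spleen DKO replicate 1, 2 of the 15 were called higher in DKO spleens by edgeR. Bst2, a tetherin that holds virus at the cell surface, stood at 246 ± 44.9 CPM in DKO and 186 ± 77.5 CPM in DKO/hA-I nodes, and Oasl1 at 25.1 ± 5.11 CPM in DKO and 19.4 ± 1.09 CPM in DKO/hA-I spleens.

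Genes that position lymphocytes together with Gpr183 were called in both directions in lymph node, 3 higher and 2 lower of 22 in DKO. Their median log2 fold change was -0.12, against 0.01 over all genes. Over all genes 6.87% were called in this comparison, 2.92% as lower. S1pr2, the sphingosine-1-phosphate receptor that confines germinal centre B cells, rose to 54.0 ± 14.3 CPM in DKO nodes, against 16.7 ± 3.67 CPM in DKO/hA-I nodes (edgeR adjusted p = 0.014). Cxcl13, the follicular stromal chemokine, rose to 347 ± 118 CPM in DKO nodes, against 138 ± 3.38 CPM in DKO/hA-I nodes (adjusted p = 0.0237). S1pr1, the receptor for exit of lymphocytes into lymph, fell to 183 ± 24.1 CPM in DKO nodes, against 312 ± 13.5 CPM in DKO/hA-I nodes (adjusted p = 0.0239).
Rgs1, a brake on chemokine receptor signalling, was named after its values were seen. It rose to 79.7 ± 29.6 CPM in DKO nodes, against 33.3 ± 3.12 CPM in DKO/hA-I nodes (edgeR adjusted p = 0.035). These node calls were lost in some fits with fewer libraries. With 1 of the 6 nodes left out in turn, S1pr2 was called in 4 fits, Cxcl13 and S1pr1 in 2 and Rgs1 in 1. The direction of each was kept. Log2 fold changes in these fits were 1.49 to 1.86 for S1pr2 and 1.07 to 1.55 for Cxcl13. They were -0.87 to -0.66 for S1pr1 and 1.00 to 1.54 for Rgs1. The list had 4 calls higher and 2 lower without DKO replicate 2, 2 higher and 3 lower without DKO replicate 1, and 0 of either without DKO replicate 3. Leaving out DKO/hA-I replicate 1 or 3 left 1 higher and 0 lower, and leaving out DKO/hA-I replicate 2 left 0. In spleen 0 of the 22 were called by edgeR, DESeq2 or limma voom and 3 had an unadjusted p under 0.05, among them the chemokine Cxcl12 at 481 ± 105 CPM in DKO and 635 ± 32.4 CPM in DKO/hA-I spleens. Without spleen DKO replicate 1, 1 of the 22 was called lower in DKO spleens by edgeR.

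Between the tissues, 4 of the 22 positioning genes were called lower in spleens of DKO mice and 0 higher. In spleens of DKO/hA-I mice 8 were called lower and 1 higher. Over all genes 11.3% were called lower in spleens of DKO and 11.8% in spleens of DKO/hA-I mice. In DKO mice 8 of the 22 were called lower without node DKO replicate 2. In DKO/hA-I mice 5 were called lower without node DKO/hA-I replicate 3 or spleen DKO/hA-I replicate 1 or 3. Ccr7, the chemokine receptor of T cell zones, was named after its value was seen, at 80.8 ± 14.7 CPM in spleens and 193 ± 28.7 CPM in nodes of DKO/hA-I mice (edgeR adjusted p = 0.00963). T cell markers moved the same way, with 4 of 6 called lower in spleens of DKO mice and 6 of 6 in spleens of DKO/hA-I mice. Their sums were 388 to 557 CPM in DKO and 385 to 471 CPM in DKO/hA-I spleens, and 527 to 828 CPM in DKO and 932 to 1080 CPM in DKO/hA-I nodes, with no marker at 0 counts. Of 7 B cell markers, 0 were called in DKO mice (median log2 fold change 0.18). In DKO/hA-I mice 1 B cell marker was called lower in spleen (median -0.17). Of 8 conventional dendritic cell markers, 3 were called higher and 2 lower in spleens of DKO mice (median 0.61). In spleens of DKO/hA-I mice 2 were called higher and 1 lower (median 0.47). The part of these cell types in the lower Gpr183 of spleen was not tested.

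**Figure D4:**
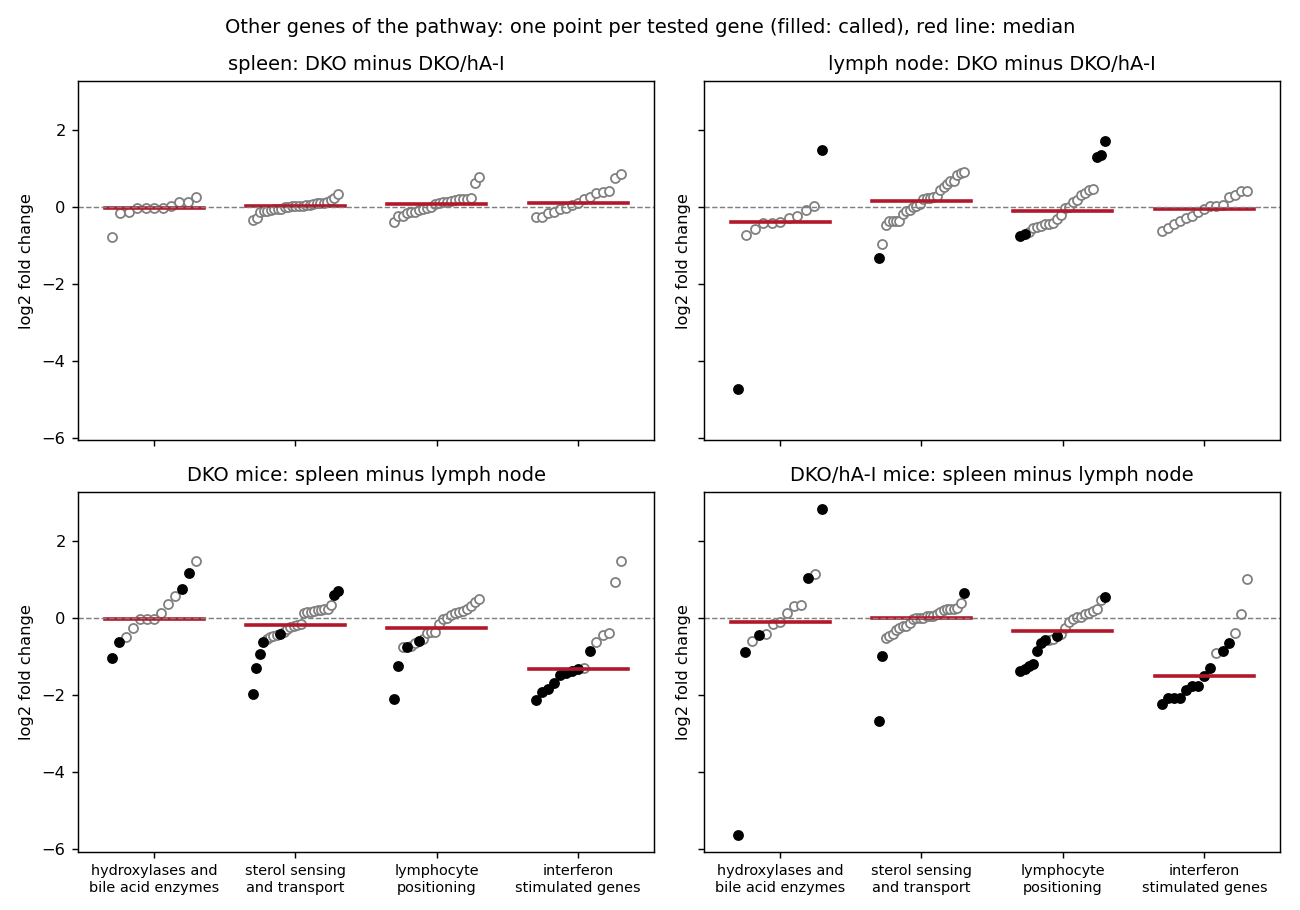
Log2 fold change (vertical axes) of each tested gene of 4 lists, filled where the edgeR adjusted p was under 0.05, with the median as a red line, in the 4 comparisons named above the panels. Between tissues the interferon stimulated genes had medians of -1.33 in DKO and -1.51 in DKO/hA-I mice, while in spleen no gene of the 4 lists was called between genotypes.

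Of 21 further sterol hydroxylases and bile acid enzymes, 11 had enough counts to be tested within a tissue. In DKO nodes 1 was called higher and 1 lower (median log2 fold change -0.40, against 0.01 over all genes). Of all genes 6.87% were called in this comparison, 2.92% as lower. Slc27a2, a ligase that activates very long chain fatty acids and bile acid precursors, fell to 0.342 ± 0.337 CPM in DKO nodes, about the level of 3 counts, against 8.14 ± 2.92 CPM in DKO/hA-I nodes (edgeR adjusted p = 0.0146). Adipocyte markers fell beside it, 7 of 7, with sums of 65.7 to 118 CPM in DKO and 541 to 1930 CPM in DKO/hA-I nodes and none at 0 counts, and their part was not tested. Cyp8b1, the sterol hydroxylase of cholic acid synthesis, rose to 2.68 ± 0.334 CPM in DKO nodes, against 0.98 ± 0.287 CPM in DKO/hA-I nodes (adjusted p = 0.0419). With 1 of the 6 nodes left out in turn, Slc27a2 was called in 3 fits and Cyp8b1 in 1, that without DKO replicate 2. In spleen 0 of 11 were called by edgeR, DESeq2 or limma voom and 1 had an unadjusted p under 0.05, Cyp46a1, the side chain hydroxylase of brain cholesterol turnover, at 2.02 ± 0.103 CPM in DKO and 3.51 ± 1.25 CPM in DKO/hA-I spleens.

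Of 26 genes that sense or move sterols, 1 was called between the genotypes in lymph node and 0 in spleen by edgeR. Of all genes 6.87% were called in lymph node. The lymph node count of the list changed with the nodes kept. Without DKO replicate 2, 6 were called higher and 1 lower, against 0 higher and 1 lower with all nodes. Leaving out any other node gave 0. DESeq2 called 6, limma voom 1, and 10 had an unadjusted p under 0.05. Insig1, which holds the SREBP machinery in the endoplasmic reticulum when it binds oxysterols, fell to 34.5 ± 14.5 CPM in DKO nodes, against 86.9 ± 23.2 CPM in DKO/hA-I nodes (edgeR adjusted p = 0.0498). It was called in 1 of the 6 fits with a node left out, that without DKO replicate 2 (adjusted p = 0.00487). Named after their values were seen, the oxysterol-activated nuclear receptor Nr1h3 (LXR alpha) stood at 126 ± 28.1 CPM in DKO and 68.4 ± 20.1 CPM in DKO/hA-I nodes (adjusted p = 0.0714), and the cholesterol acyltransferase Soat1 at 142 ± 47.3 CPM in DKO and 78.4 ± 6.42 CPM in DKO/hA-I nodes (adjusted p = 0.0738). These values lay beside the macrophage marker sums given above. In spleen 0 of the 25 tested had an unadjusted p under 0.05 and DESeq2 and limma voom called 0, with the sterol carrier Stard4 at 24.7 ± 4.32 CPM in DKO and 31.1 ± 5.24 CPM in DKO/hA-I spleens.

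The genes whose level followed each member most closely over the 12 libraries, after the mean of each tissue was subtracted, were ranked by Pearson correlation of log2 CPM among the genes with a mean of at least 5 CPM. For Gpr183 they were Fbxo21, Smoc1 and Nr3c2 (r = 0.966, 0.948 and 0.947), and for Hsd3b7 Alg9, Parvb and P2ry6 (r = 0.975, 0.964 and 0.962). For Cyp27a1 they were Cuedc1, Eno3 and Arl5c (r = 0.973, 0.953 and 0.950), and for Cyp7b1 Akirin1, Spty2d1 and Golph3 (r = 0.964, 0.949 and 0.932). For Ch25h the closest were Ccdc92, Pitpnb and Ccdc93, at r = 0.798, 0.767 and 0.761. The points share libraries, depth and the genotype groups, and these are the highest of many correlations, given as a description.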

How the data were processed

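Poly(A) RNA of 12 libraries was analysed from raw counts per gene symbol, as deposited by the authors in 1 table per tissue. The submitters' processing notes name Trimmomatic, Bowtie, TopHat, Cuffdiff and GRCm38 (mm10), without versions. The sources used here do not give the counting program, annotation or strand setting. The deposited tables also hold the authors' q-values, quoted once. Columns were matched to libraries by animal code. A chi-square of counts per degree of freedom was 9.52 to 56.5 for pairs within a group, so none was a copy. The 12 libraries carry different animal codes, and 20876 symbols matched 1 annotated gene. Floors cover counting error only.

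Genes were then tested with edgeR 4.0.16 in R 4.3.3 (filterByExpr, minimum count 10 and total 15, TMM, robust quasi-likelihood test), within each tissue for DKO minus DKO/hA-I, and in one fit of 12 libraries for spleen minus lymph node and for the difference of genotype effects. A gene was called where its p, adjusted by Benjamini-Hochberg over all genes, was under 0.05. Printed CPM use TMM factors of the 12 libraries. RPKM divides them by the union of exons in GENCODE vM21, which can exceed the length of the expressed transcript. Alternatives used DESeq2 1.42.0, limma 3.58.1 voom, other scalings, no filter, blocks and each library left out. The steps were tested on simulated data with 200 changed genes. In spleen 73% of 2-fold and 92% of 4-fold changes were recovered, with 16 false calls. In lymph node 58% and 90% were recovered, with 15 false calls. The members and lists were chosen with earlier results of these data known. All 5 members are described. One called gene of a list is counted but not reported here by name. Within a tissue, up to 3 called genes per list by p, otherwise up to 2 as values, were eligible for naming, as were the 3 genes most correlated with each member, passing over gene model numbers and immunoglobulin or T cell receptor segments.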

Additional observations from a re-analysis of the deposited data

Results flagged for a closer look

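Of 22 lymphocyte positioning genes, 3 were called by edgeR for the difference of genotype effects between spleen and node in the fit of 12 libraries. Over all genes 3.33% were called in that test. The node calls of S1pr2 and Cxcl13 were lost in some fits with 1 node left out, as given above. Spleen minus node was -1.70 ± 0.36 for S1pr2 on the log2 scale (adjusted p = 0.0249), where the genotype difference was -0.02 in spleen and 1.70 in lymph node. For Cxcl13 it was -1.56 ± 0.30 (adjusted p = 0.016), with -0.23 in spleen and 1.34 in lymph node. For Cxcl12, a stromal chemokine, it was -0.82 ± 0.20 (adjusted p = 0.042), with -0.41 in spleen and 0.43 in lymph node, and neither of these was called. Were the labels of 1 tissue exchanged, the 2 genotype differences of Cxcl12 would have the same sign and nearly the same size, and their difference would be near 0.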

How the results depend on the processing

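Over 25 log2 fold changes of the 5 genes and 425 refitted values under the alternatives, 394 kept their direction and their side of the threshold. The sign turned for values that were not called: Ch25h in lymph node was -0.01 without DKO/hA-I replicate 1 (up to 0.41 with another library left out), Cyp27a1 in lymph node was 0.11 without DKO replicate 2 (down to -0.33), and without that library the genotype difference between tissues was 0.07 for Cyp7b1 and -0.14 for Cyp27a1 (otherwise down to -0.52 and up to 0.25). In spleen Cyp7b1 was -0.15 and Cyp27a1 0.03 with the animal code as a block, Cyp7b1 was -0.08 without DKO replicate 1 (up to 0.42 otherwise), and Cyp27a1 and Gpr183 were 0.08 and 0.04 without DKO/hA-I replicate 2 (both down to -0.13). The cause was not tested.

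Genes called in lymph node numbered 962 and, with DESeq2, 1967, with the fit of 12 libraries 2252, and 115 to 2248 with 1 library left out. For DKO replicates 1, 2 and 3 left out in turn the count was 425, 2248 and 144, and for DKO/hA-I replicates 1, 2 and 3 it was 149, 115 and 433. They were 553 higher and 409 lower with TMM, and 474 higher and 544 lower with unscaled library totals. In spleen 1 gene was called, 5 with DESeq2, 515 with the animal code as a block, and 1 to 167 with 1 library left out, with 167 without DKO replicate 1 and 2 without DKO replicate 2. For spleen against lymph node 3321 genes were called in DKO mice, 2204 with only the libraries of that genotype, 5174 averaged over both genotypes and 2391 to 4427 with 1 library left out, and in DKO/hA-I mice 3760 and 2898 to 4624. The genotype difference between tissues called 487 genes, 973 with DESeq2, 242 with limma voom and 179 to 1160 with 1 library left out. It called 1160 without node DKO replicate 2 and 222 without replicate 3, 190 without node DKO/hA-I replicate 2, 179 and 188 without spleen DKO replicates 2 and 3, and 225, 196 and 199 without spleen DKO/hA-I replicates 1, 2 and 3. With 1 library left out of a group, the remaining pair is assumed to vary like the other groups.

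Replicate numbers were not used to pair the samples in the main tests. Same-numbered libraries of the 2 genotypes deviated from their group means with correlations of -0.141 to 0.108. Differently numbered libraries gave -0.128 to 0.183. These values show no sign of pairing by number, but with so few libraries per group they cannot exclude it. With the replicate block 438 genes were called in lymph node and 299 for the genotype difference between tissues, and Gpr183 in lymph node and Ch25h in DKO mice had adjusted p of 0.109 and 0.0675 (log2 fold changes -0.53 and -0.92). In lymph node no fit with the animal code as a block could be had. Depth limits Cyp7b1 and Ch25h most, with 20 to 38 and 29 to 120 counts per library.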
